A study of Mus musculus with 28 samples.

Results

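The molecular clock of mammalian cells is a feedback loop of transcription, and 10 genes that form its core are described here: the activators *Arntl* and *Clock*, the repressors *Per1*, *Per2*, *Per3*, *Cry1* and *Cry2*, the nuclear receptors *Nr1d1* and *Nr1d2*, and the output factor *Dbp*. They were chosen by name, as the textbook components of the loop, out of 29878 genes listed in the count files. All 10 exceeded 1 CPM (counts scaled to the library size) in at least 2 libraries and were among the 14979 genes tested. RNA-seq was carried out on dorsal striatum, ventral striatum, motor cortex and hypothalamus of male mice aged 2 to 3 months that were wild type (WT), heterozygous or knockout (KO) for *Hdc*, the gene of histidine decarboxylase, which makes histamine from histidine. The *Hdc* deletion is constitutive and was backcrossed to C57Bl/6, so it is present in all cells throughout life, and the mice of the 3 genotypes share that background and no treatment. WT, heterozygous and KO mice gave 2, 3 and 2 libraries of dorsal striatum, 3, 3 and 2 each of ventral striatum and of hypothalamus, and 1, 2 and 2 of motor cortex. Library names carry a digit from 1 to 8, taken here as the mouse number and not explained in the sources. Nothing else says which libraries came from separate animals, so p-values measure the spread between these libraries. Mice were kept on a light/dark cycle. The time of day of dissection is not given in the sources used here, so it was not a term in any fit, and any difference in it between mice or genotypes cannot be told apart from the values below.

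In the loop, the proteins of *Arntl* (BMAL1) and *Clock* bind as a pair to E-box sequences and switch on the *Per*, *Cry*, *Nr1d1*, *Nr1d2* and *Dbp* genes. PER and CRY proteins then return to the nucleus and block the pair, while the receptors encoded by *Nr1d1* and *Nr1d2* (REV-ERBα and REV-ERBβ) repress *Arntl* at ROR elements, so that *Arntl* RNA peaks when the RNA of its targets is low. The suprachiasmatic nucleus of the hypothalamus is the master clock, other brain regions run clocks of their own, and *Per1* and *Per2* are also induced quickly by neuronal activity and by glucocorticoids.

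Motifs bound by factors of the loop were looked for in the promoters of its genes. The RefSeq promoter table of GRCm38.p6, whose windows span 250 bases before to 50 bases after a transcript start, held 13 windows for 9 of the 10 genes. *Per2* had none. The letters CACGTG (E-box) were found in 7.15% of all 32851 windows, TTATGTAA or TTATGCAA (D-box, bound by DBP) in 1.66%, the ROR element in 0.384% and TGACGTCA (the cyclic AMP response element) in 1.79%, on either strand. Among the clock genes, *Per1* and *Cry1* held an E-box, *Per1* and *Per3* a D-box, *Arntl* a ROR element, and none the cyclic AMP response element. No matches of different motifs overlapped. These stretches are shown because their letters match motifs that factors of the loop are known to bind, each on the strand of its gene and with the motif in capitals; positions count from 1 at the transcript start. They lie at chr11:69098763-69098808 (*Per1*, + strand, motif from position -166 of the start), chr11:69098905-69098948 (*Per1*, + strand, from -24), chr10:85185089-85185134 (*Cry1*, - strand, from -60), chr4:151044843-151044890 (*Per3*, - strand, from -205), chr4:151044796-151044843 (*Per3*, - strand, from -158) and chr7:113207528-113207556 (*Arntl*, + strand, from 27).
*Per1* E-box: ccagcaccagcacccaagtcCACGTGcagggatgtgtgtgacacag
*Per1* D-box: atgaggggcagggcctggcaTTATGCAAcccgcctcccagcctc
*Cry1* E-box: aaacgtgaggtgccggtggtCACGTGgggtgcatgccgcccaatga
*Per3* D-box, farther from the start: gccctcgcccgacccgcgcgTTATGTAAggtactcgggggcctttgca
*Per3* D-box, nearer to the start: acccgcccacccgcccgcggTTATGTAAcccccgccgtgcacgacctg
*Arntl* ROR element: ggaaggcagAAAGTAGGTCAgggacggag
A match is a description of letters, and its absence elsewhere says only that these letters are not in that window.

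Libraries held between 3536802 and 5150280 counts on genes. Markers of the dissected regions were where the labels put them. Summed markers of striatal spiny neurons were 4574 to 6560 CPM in dorsal striatum, 1285 to 2893 in ventral striatum and at most 161 elsewhere, and 6 hypothalamic peptides summed to 157 to 249 CPM in hypothalamus and at most 5.50 elsewhere. Several libraries stood apart. Summed choroid plexus markers were 2830 CPM in dorsal striatum KO replicate 8 and 3.14 to 88.6 in the other 27 libraries, and cortical excitatory markers outside the cortex were highest in hypothalamus KO replicate 8 (392 CPM) and dorsal striatum KO replicate 7 (340 CPM). *Hdc* itself had 0 to 6 counts in WT libraries of the striatal regions and motor cortex and 29 to 51 in libraries labelled KO. In hypothalamus it had 79 to 111 counts in WT and 54 to 66 in KO. Its counts thus did not fall to 0 with the deletion, and genotypes here are those of the labels.

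All 10 clock genes were detected in every library, at levels that differed widely. Per kilobase of exon, the median over the 28 libraries was highest for *Nr1d1* at 58.2 CPM, then *Nr1d2* at 14.8, *Cry2* at 12.9 and *Per1* at 11.4. *Clock* followed at 8.06, *Per2* at 5.72, *Per3* at 3.37, *Dbp* at 2.62, *Arntl* at 2.47 and *Cry1* at 2.12. Within each family the same gene led: on this per-length scale *Nr1d1* exceeded *Nr1d2* by 3.29 to 9.0 times and *Cry2* exceeded *Cry1* by 3.05 to 25.3 times in the single libraries. *Per1* exceeded *Per2* by 1.27 to 2.92 times, and *Clock* exceeded its partner *Arntl* by 1.99 to 4.59 times. *Cry1* and *Dbp* rested on few reads, 7 to 47 and 12 to 73 counts per library, while *Nr1d1* had 550 to 1566.

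**Figure D1:**
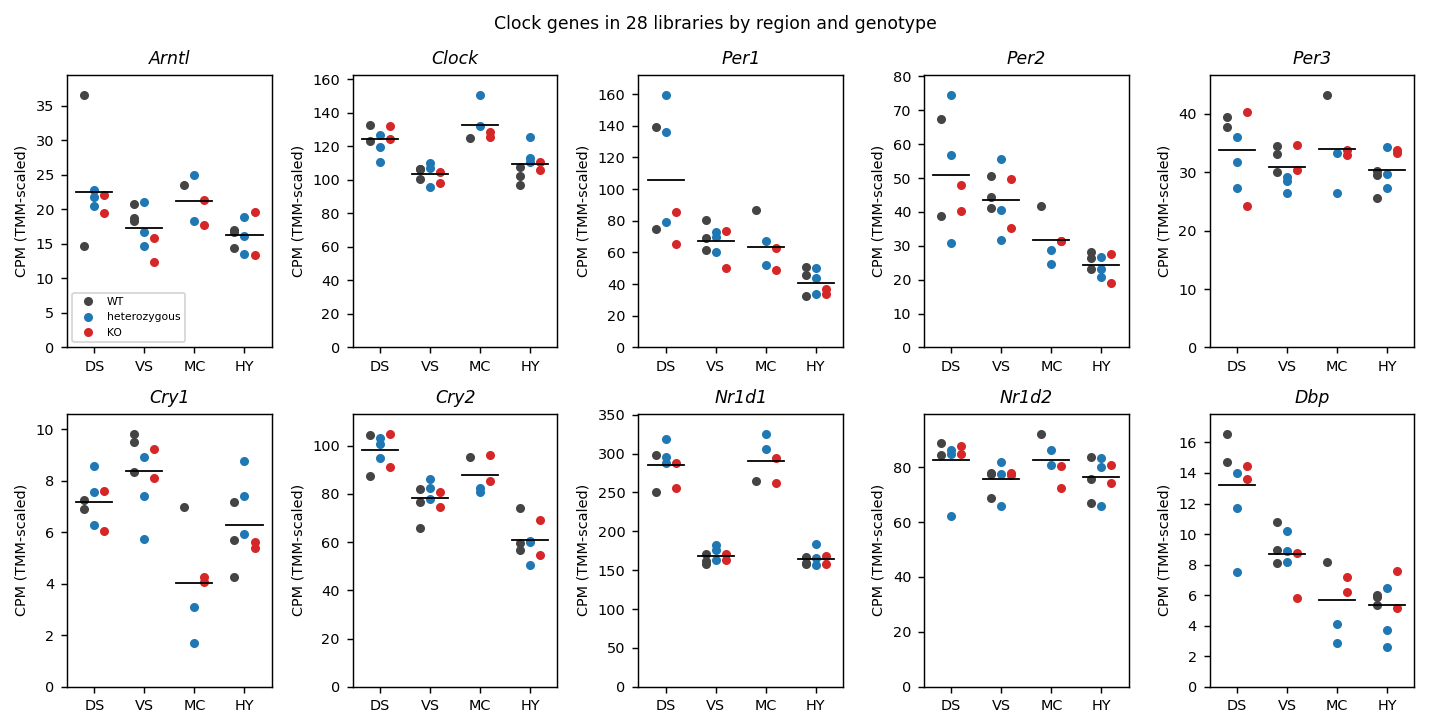
TMM-scaled CPM of the 10 clock genes in the 28 libraries (points, coloured by genotype) of dorsal striatum (DS), ventral striatum (VS), motor cortex (MC) and hypothalamus (HY); lines mark the mean of a region. *Nr1d1* was between 250 and 325 CPM in every dorsal striatum and motor cortex library and between 156 and 183 in every ventral striatum and hypothalamus library.

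With TMM scaling, the clearest pattern across the tissues was a lower level of most clock genes in the hypothalamus. Averaged over genotypes, 7 of the 10 were lower in hypothalamus than in dorsal striatum at an adjusted p-value under 0.05 and none higher, where 25.5% of all genes tested were lower and 30.7% higher (56.1% in either direction). With scaling by library size alone *Clock*, 1 of the 7, was instead higher in hypothalamus, and so was *Nr1d2*. That scaling also lost the call of *Arntl* (adjusted p = 0.541). Against ventral striatum 5 of 10 were lower and none higher (19.7% of all genes lower, 23.9% higher, 43.6% in either direction). With library size alone the calls of *Cry1* (adjusted p = 0.182) and *Cry2* (adjusted p = 0.118) were lost there. *Clock*, *Nr1d1* and *Nr1d2* were then higher in hypothalamus than in ventral striatum. Against motor cortex 6 were lower and *Cry1* was higher (22.9% of all genes lower, 25.4% higher, 48.2% in either direction), and with library size alone these 7 calls fell to 4. In the other pairs, 6 of 10 were higher in dorsal than in ventral striatum and none lower (14.6% higher and 29.0% in either direction among all genes), 4 were lower in motor cortex than in dorsal striatum and none higher (21.4% lower, 22.0% higher, 43.4% in either direction), and motor cortex against ventral striatum gave 2 higher and 3 lower (21.5% and 22.2%, 43.7% in either direction). In dorsal minus ventral striatum, library size alone lost the calls of *Arntl*, *Clock* and *Cry2*. It made *Cry1* lower in dorsal striatum (-0.38, adjusted p = 0.0448). Over the 6 pairs with TMM scaling, 34 of 60 tests (56.7%) passed, against 44.0% over all genes. *Per3* and *Nr1d2* passed in none of them. In bulk tissue, fewer cells of a type and less RNA per cell cannot be told apart.

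*Arntl* and *Clock*, the activators, differed least among the genes that differed at all. *Clock* (chr5:76209868-76304792, GRCm38) was 111, 124 and 133 CPM (lowest, median and highest) in dorsal striatum, 95.6, 105 and 110 in ventral striatum and 96.9, 109 and 125 in hypothalamus, and 125, 125, 129, 132 and 151 in motor cortex. The motor cortex and dorsal striatum libraries lay above all ventral striatum libraries, by 0.34 ± 0.07 (log2 difference ± SE, adjusted p = 8.36e-06, edgeR) and 0.27 ± 0.06 (adjusted p = 0.000148). Hypothalamus and ventral striatum did not differ beyond their spread for *Clock* with TMM scaling (95% interval -0.05 to 0.19), and neither did motor cortex and dorsal striatum (-0.07 to 0.21). With library size alone both passed, hypothalamus being higher than ventral striatum by 0.29 (adjusted p = 0.000165) and motor cortex higher than dorsal striatum by 0.20 (adjusted p = 0.0420), and dorsal minus ventral striatum was lost (0.12, adjusted p = 0.210).

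*Arntl* (chr7:113207465-113314126) was 14.7, 21.8 and 36.6 CPM in dorsal striatum, 12.4, 17.5 and 21.1 in ventral striatum, and 13.4, 16.4 and 19.6 in hypothalamus. In motor cortex its values were 17.7, 18.3, 21.4, 23.6 and 25.0 CPM. All regions overlapped. It was lower in hypothalamus than in dorsal striatum by a log2 difference of -0.47 ± 0.14 (adjusted p = 0.00275) and than in motor cortex (-0.40 ± 0.16, adjusted p = 0.0288), and higher in dorsal than in ventral striatum (0.41 ± 0.15, adjusted p = 0.0204). Both calls with dorsal striatum rested on the 36.6 CPM of WT replicate 1, and without that library the differences were -0.21 (adjusted p = 0.148) and 0.15 (adjusted p = 0.434). The call between the striatal regions was also lost without dorsal striatum KO replicate 7 (0.38, adjusted p = 0.0707) or ventral striatum KO replicate 8 (0.36, adjusted p = 0.0865). The call against motor cortex was lost on leaving out any of 5 single libraries. With library size alone none of these *Arntl* differences passed. Hypothalamus was then at -0.10 from dorsal striatum (adjusted p = 0.541) and -0.17 from motor cortex (adjusted p = 0.356). Dorsal minus ventral striatum was 0.25 (adjusted p = 0.159).

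*Per1* and *Per2* are the repressors that neuronal activity can induce. Between the highest and the lowest region mean *Per1* differed by 2.58 times, more than any other clock gene, and *Per2* differed by 2.09 times. *Per1* (chr11:69095217-69109960) was 65.3, 85.4 and 160 CPM in dorsal striatum, 50.1, 69.5 and 80.5 in ventral striatum, and 32.5, 40.3 and 50.8 in hypothalamus. In motor cortex the libraries were at 48.9, 52.2, 62.9, 67.3 and 86.8 CPM. Every dorsal striatum library thus lay above every hypothalamus library, while dorsal striatum itself split into 3 libraries at 136 CPM or more and 4 at 85.4 or less. *Per1* was 2.50 times lower in hypothalamus than in dorsal striatum (log2 difference -1.32 ± 0.15, adjusted p = 2.19e-18), and lower than in ventral striatum (-0.73 ± 0.14, adjusted p = 2.29e-06) and motor cortex (-0.72 ± 0.17, adjusted p = 4.01e-05). Dorsal exceeded ventral striatum by 0.59 ± 0.15 (adjusted p = 0.000293). Ventral striatum and motor cortex did not differ beyond their spread (95% interval of motor cortex minus ventral striatum -0.33 to 0.31).

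*Per2* (chr1:91415982-91459324) followed with 30.8, 47.9 and 74.6 CPM in dorsal striatum, 31.8, 42.7 and 55.8 in ventral striatum and 19.1, 24.9 and 28.1 in hypothalamus. Motor cortex libraries were at 24.7, 28.7, 31.4, 31.4 and 41.8 CPM. All hypothalamus libraries were below all striatal ones. The log2 differences of hypothalamus were -1.05 ± 0.15 from dorsal striatum (adjusted p = 5.37e-11), -0.84 ± 0.15 from ventral striatum (adjusted p = 1.55e-07) and -0.43 ± 0.18 from motor cortex (adjusted p = 0.0306). The last was the weakest, called in 29 of 35 settings, with a difference of -0.20 and an adjusted p = 0.378 under library size alone and adjusted p-values up to 0.118 on leaving out 1 library (hypothalamus KO replicate 7). Unlike *Per1*, *Per2* gave no call between the striatal regions (0.21, 95% interval -0.09 to 0.51), a contrast between the genes that was not tested. The comparison of *Per2* between motor cortex and ventral striatum was near the threshold (-0.41 ± 0.17, adjusted p = 0.0441) and was called in 24 of 35 settings. It was lost under edgeR's quasi-likelihood test (adjusted p = 0.0521), under DESeq2 (adjusted p = 0.0583) and on leaving out any of 9 single libraries, with adjusted p-values up to 0.153 (without ventral striatum KO replicate 7, difference -0.32).

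*Per3* (chr4:151003652-151044665), the third period gene, was nearly level, with region means from 30.5 CPM in hypothalamus to 34.0 in motor cortex and values from 24.1 to 43.3 CPM over all libraries. No pair of regions passed. The interval of hypothalamus minus dorsal striatum ran from -0.34 to 0.04, which leaves out a change the size of that of *Per1* or *Per2*. Without dorsal striatum KO replicate 8, the library with choroid plexus markers and the lowest *Per3* (24.1 CPM), that difference was -0.26 and passed (adjusted p = 0.00993).

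The cryptochromes, which complete the repressor complex, had different orders of regions. *Cry2* (chr2:92403646-92434043) was 87.2, 101 and 105 CPM in dorsal striatum, 65.7, 79.4 and 86.2 in ventral striatum, and 50.5, 59.9 and 74.2 in hypothalamus. Motor cortex was at 80.9, 82.3, 85.1, 95.4 and 95.9 CPM. Hypothalamus libraries lay below all libraries of dorsal striatum (log2 difference -0.69 ± 0.08, adjusted p = 3.82e-17) and motor cortex (-0.55 ± 0.09, adjusted p = 3.97e-09), and dorsal lay above ventral striatum without overlap (0.33 ± 0.08, adjusted p = 0.000284; 0.18 and adjusted p = 0.0984 with library size alone).

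*Cry1* (chr10:85131700-85185064) was highest in ventral striatum, at 5.75, 8.63 and 9.81 CPM, against 6.04, 7.25 and 8.58 in dorsal striatum and 4.26, 5.80 and 8.75 in hypothalamus. Its lowest region was motor cortex, at 1.69, 3.09, 4.05, 4.26 and 6.97 CPM, the last of these the WT library. Motor cortex was lower than ventral striatum by -1.02 ± 0.20 (log2, adjusted p = 3.47e-07), than dorsal striatum by -0.80 ± 0.21 (adjusted p = 0.000251) and than hypothalamus, where the difference of hypothalamus minus motor cortex was 0.58 ± 0.20 (adjusted p = 0.00731; 0.45 and adjusted p = 0.0672 without motor cortex heterozygous replicate 5). These differences are averages over genotypes, and WT did not show that of hypothalamus. Mean *Cry1* in motor cortex and hypothalamus was 6.97 (1 library) and 5.70 CPM in WT. It was 2.39 and 7.36 in heterozygous and 4.155 and 5.50 in KO libraries. The WT mean of dorsal striatum was 7.07 CPM. In the average over genotypes, *Cry1* was the only clock gene called higher in hypothalamus than in another region with TMM scaling (with library size alone *Clock*, *Nr1d1* and *Nr1d2* also were).

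*Nr1d1* and *Nr1d2* encode receptors with the same role in the loop and had unlike patterns. *Nr1d1* (chr11:98767932-98775333) was 250, 288 and 319 CPM in dorsal striatum and 262, 264, 295, 306 and 325 in motor cortex. It was 159, 166 and 182 CPM in ventral striatum and 156, 163 and 183 in hypothalamus. The 2 high and the 2 low regions did not overlap, and within each pair the regions did not differ beyond their spread. Dorsal exceeded ventral striatum by 0.75 ± 0.06 on the log2 scale, or 1.68 times (adjusted p = 1.91e-29), and motor cortex exceeded hypothalamus by 1.74 times (adjusted p = 1.32e-28). Hypothalamus minus ventral striatum was -0.03 with a 95% interval of -0.16 to 0.09, a difference that changed sign with scaling by library size alone.

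The *Nr1d1* gene shares 263 bases of exon, 8.55% of its exons, with *Thra* on the other strand, and whether reads were counted by strand is not given in the sources used here. *Thra*, a thyroid hormone receptor, averaged 445 CPM in ventral striatum, 376 in dorsal striatum, 338 in motor cortex and 306 in hypothalamus, so its highest region was one of the low regions of *Nr1d1*. *Nr1d2* (chr14:18204054-18239127) had region means of 75.6 to 82.7 CPM and passed in no pair. Without dorsal striatum heterozygous replicate 4, the lowest library at 62.4 CPM, hypothalamus minus dorsal striatum was -0.17 and passed (adjusted p = 0.0404). Its interval of dorsal minus ventral striatum was -0.03 to 0.30, and that of *Nr1d1* in the same comparison was 0.62 to 0.87.

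*Dbp* (chr7:45705088-45710203), a PAR-bZIP factor whose RNA is a direct readout of the activator pair, was 7.54, 14.0 and 16.5 CPM in dorsal striatum, 5.82, 8.80 and 10.8 in ventral striatum and 2.61, 5.61 and 7.58 in hypothalamus. Motor cortex was at 2.90, 4.12, 6.22, 7.17 and 8.17 CPM. Among the dorsal striatum libraries, only heterozygous replicate 4, at 7.54 CPM, reached down into the range of the hypothalamus, while ventral striatum and motor cortex overlapped it. *Dbp* was 2.48 times lower in hypothalamus than in dorsal striatum (log2 difference -1.31 ± 0.16, adjusted p = 6.10e-16), and lower than in ventral striatum (-0.65 ± 0.17, adjusted p = 0.000289). Motor cortex was lower than dorsal striatum by -1.21 ± 0.20 (adjusted p = 1.69e-09), and hypothalamus and motor cortex did not differ beyond their spread (-0.50 to 0.30). *Dbp* shares 539 bases of exon (18.0%) with *Sphk2* on the other strand, which was at region means of 19.1 to 23.2 CPM and highest in hypothalamus, where *Dbp* was lowest.

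**Figure D2:**
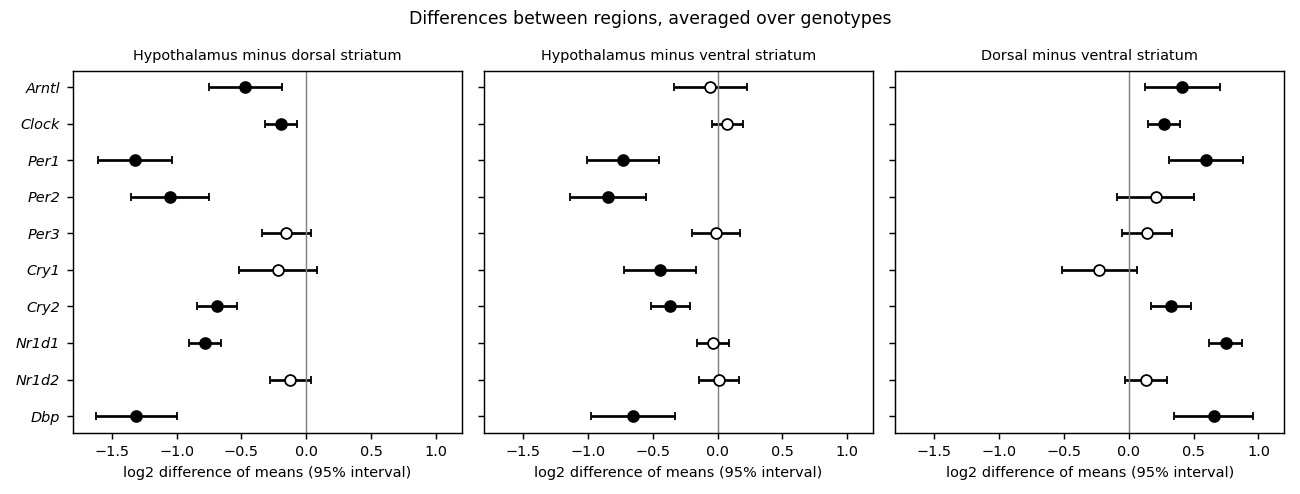
Log2 differences between regions of the 10 clock genes with 95% intervals, averaged over genotypes; filled points passed an adjusted p-value of 0.05 and open points did not. Filled points lie at or below -0.20 in both comparisons of hypothalamus (*Clock* against dorsal striatum turned positive under scaling by library size alone), and at 0.27 or above in dorsal minus ventral striatum.

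A further 27 genes that act with the clock (10 partner transcription factors, 10 kinases and ubiquitin ligases, 7 cofactors) were not uniformly low in hypothalamus. Of these, 19 passed against dorsal striatum (70.4%, against 56.1% of all genes), 8 higher and 11 lower. *Npas2*, the paralogue of *Clock* that can take its place beside BMAL1, had the smallest p-value in that comparison, with 14.3 to 22.8 CPM in hypothalamus, 91.1 to 135 in dorsal striatum, 46.6 to 110 in ventral striatum and 56.5 to 76.8 in motor cortex. Its log2 difference of hypothalamus minus dorsal striatum was -2.67 ± 0.13 (adjusted p = 2.01e-86). Per length of all annotated exons, *Clock* was 1.70 to 2.59 times *Npas2* in hypothalamus libraries and 0.310 to 0.931 times in all others. On that scale the higher of the pair was *Clock* in hypothalamus and *Npas2* elsewhere. In CPM not divided by length, *Clock* was also the higher in motor cortex, at 125 to 151 CPM, and overlapped *Npas2* in the striatal regions. Which transcripts were expressed was not examined, so the order outside hypothalamus depends on the scale.

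The other genes with the smallest p-values in hypothalamus minus dorsal striatum were *Usp2*, a deubiquitinase of clock proteins (-1.60), *Tef*, a relative of *Dbp* (-1.04), *Gsk3b*, a kinase (-0.64), *Ncor1*, the corepressor of the REV-ERB receptors (-0.62), and, in the other direction, *Rora* (1.47), which encodes the activator that competes with REV-ERB at ROR elements. *Rora* was 236 to 474 CPM in hypothalamus, 177 to 208 in motor cortex, 88.1 to 120 in dorsal striatum and 54.5 to 86.0 in ventral striatum. Thus the PAR-bZIP genes *Dbp* and *Tef* were both lower in hypothalamus, and so was the third, *Hlf* (-0.95 ± 0.11), named here after its values were seen. In dorsal minus ventral striatum, 11 of the 27 were higher and *Hdac3* was lower (-0.28 ± 0.09), against 14.6% higher and 14.4% lower among all genes, with *Gsk3b* (0.70), *Usp2* (0.73), *Hlf* (0.79), *Npas2* (0.60), *Rora* (0.53) and *Ncor1* (0.28) the leading genes.

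Genes of the suprachiasmatic nucleus were present in the hypothalamus at low levels. Of 10 markers, 7 passed as higher in hypothalamus than in dorsal striatum and none lower (30.7% and 25.5% of all genes), and against ventral striatum 6 were higher and *Syt10* was lower (-1.23 ± 0.20, adjusted p = 1.19e-08; 23.9% and 19.7% of all genes). Their summed level was 69.0 to 112 CPM in hypothalamus and 79.8 to 115 in ventral striatum, where *Syt10* alone gave 67.0 to 109.9. In hypothalamus *Lhx1* was 9.14 to 15.5 CPM (at most 2.31 elsewhere), *Rgs16* was 17.8 to 39.4 CPM, and *Vipr2* was 4.28 to 11.4. *Vip*, the peptide of the light-receiving core of the nucleus, was 0.371 to 4.77 CPM in hypothalamus and 13.5 to 19.5 in motor cortex, and *Nms* had at most 5 counts per library. The share of the nucleus in the dissected hypothalamus, and its part in the levels of the clock genes, was not tested.

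*Hdc* genotype gave no call for any of the clock genes. In KO minus WT, 0 of 10 passed in dorsal striatum (0.387% of all genes), in ventral striatum (0.0801%), in motor cortex (0.0334%) and in hypothalamus (0.167%). Heterozygous minus WT also gave 0 of 10 in dorsal striatum (0.0868% of all genes), ventral striatum (0.0534%), motor cortex (0.0134%) and hypothalamus (0.0935%), as did KO minus heterozygous (0.461%, 0.0467%, 0.00668% and 0.234% in the same order). Of the 120 tests, 6 (5%) had an unadjusted p under 0.05, against 5.49% over all genes, and the smallest adjusted p was 0.290 with edgeR's likelihood ratio test. The quasi-likelihood test gave 0 calls and 8 unadjusted p-values under 0.05, and DESeq2 gave 0 and 7. None of the 27 other clock genes passed in KO minus WT of any region.

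The precision of these comparisons differed between genes. For *Nr1d1* and *Clock*, KO minus WT had 95% intervals within -0.27 and 0.29 on the log2 scale in dorsal striatum, ventral striatum and hypothalamus. In dorsal striatum *Nr1d1* was 250 and 298 CPM in WT, 288, 295 and 319 in heterozygous and 256 and 288 in KO libraries, a log2 difference of -0.01 (95% interval -0.24 to 0.23). *Cry2* and *Nr1d2* had intervals within -0.32 and 0.33 in these regions. For *Dbp* in dorsal striatum, at 14.7 and 16.5 CPM in WT and 13.6 and 14.4 in KO, the interval was -0.69 to 0.36, and for *Cry1* it was -0.63 to 0.53. *Per2* and *Arntl* had intervals as wide in dorsal striatum, -0.84 to 0.29 and -0.81 to 0.26.

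*Per1* had the lowest adjusted p of the 120 genotype tests. In dorsal striatum it was 74.95 and 139 CPM in WT, 79.0, 136 and 160 in heterozygous and 65.3 and 85.4 in KO libraries. The KO libraries overlapped both other groups. KO minus WT was -0.51 ± 0.27 (adjusted p = 0.674) and KO minus heterozygous -0.73 ± 0.25 (adjusted p = 0.290). Without heterozygous replicate 6, the 79.0 CPM library, the latter was -0.97 and passed (adjusted p = 0.0182).

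In ventral striatum *Per1* was 61.7, 69.3 and 80.5 CPM in WT and 50.1 and 73.5 in KO, and in hypothalamus 32.5, 45.9 and 50.8 in WT and 34.0 and 36.8 in KO. The groups overlapped in each. Averaged over these regions and dorsal striatum, KO minus WT of *Per1* was -0.33 ± 0.15 (adjusted p = 0.418). No clock gene passed in that average (0.527% of all genes). In motor cortex the single WT library had 86.8 CPM and the KO libraries 48.9 and 62.9 (-0.63 ± 0.34, adjusted p = 1). With 1 WT library the difference cannot be checked against the spread among WT mice, and it passed in a fit of the 5 motor cortex libraries alone (adjusted p = 0.0354).

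The largest difference among the 120 genotype tests was that of *Cry1* in motor cortex, at 6.97 CPM in the WT library against 1.69 and 3.09 in heterozygous and 4.05 and 4.26 in KO libraries (heterozygous minus WT -1.55 ± 0.45, adjusted p = 0.571). *Dbp* had the same order in motor cortex, with 8.17 CPM in WT, 2.90 and 4.12 in heterozygous and 6.22 and 7.17 in KO. Both differences rest on 1 WT library and on counts between 7 and 34 per library. The change with KO was also compared between regions, and 0 of 10 clock genes passed for dorsal against ventral striatum (0.00668% of all genes), dorsal striatum against hypothalamus (0.154%) and ventral striatum against hypothalamus (0.1%). The lowest adjusted p was that of *Per3* in dorsal striatum against hypothalamus (-0.49 ± 0.25, adjusted p = 0.717). Leaving out the libraries with the highest choroid plexus or misplaced cortical markers, dorsal striatum KO replicate 8 and hypothalamus KO replicate 8, left 1 KO library in each region. The 1 kept in dorsal striatum, KO replicate 7, itself had 340 CPM of cortical excitatory markers. That fit therefore cannot show whether the genotype results depend on such tissue.

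**Figure D3:**
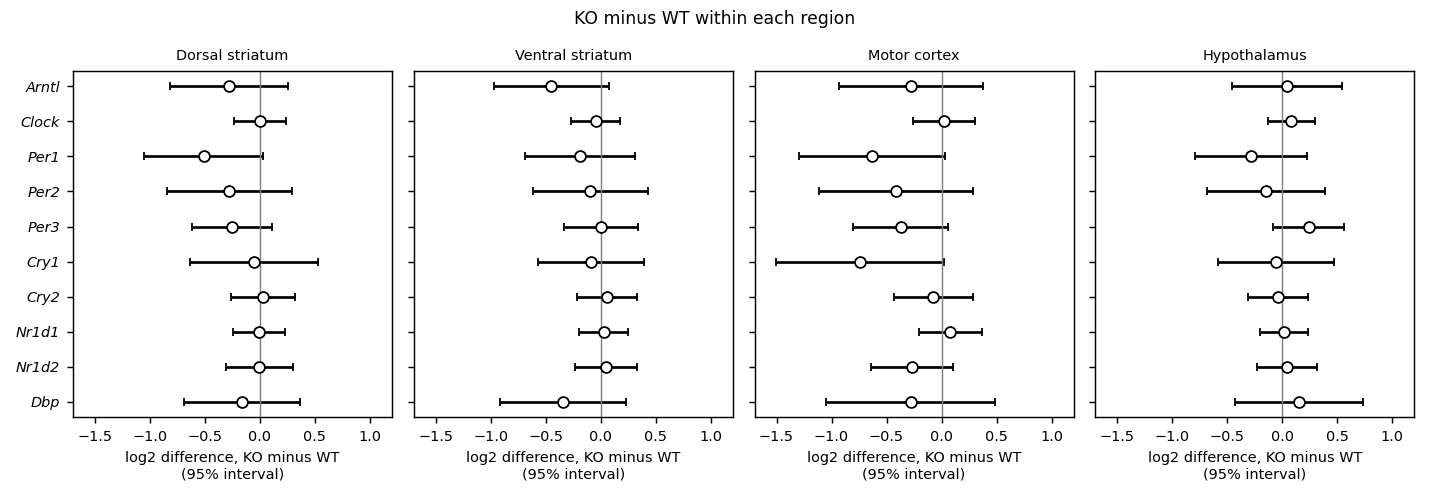
Log2 difference of KO minus WT with its 95% interval for the 10 clock genes in each region; the motor cortex had 1 WT library. All points are open because none passed, and the intervals of all 40 differences include 0.

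*Per1* and *Per2* stood beside the immediate early genes, a group of 12 activity-induced genes such as *Fos* and *Arc*. The mean log2 CPM of that group was 3.40 to 5.11 in dorsal striatum, 3.62 to 4.48 in motor cortex, 2.49 to 3.74 in ventral striatum and 1.87 to 3.00 in hypothalamus. Within dorsal striatum, the 3 libraries with the highest mean (4.60, 4.95 and 5.11) were those with *Per1* at 136 CPM or more and with the highest *Per2* (56.9, 67.6 and 74.6 CPM). Heterozygous replicate 6, with a mean of 4.46, had only 79.0 CPM of *Per1* and the lowest *Per2* of the region, 30.8 CPM. In ventral striatum KO replicate 8 had the lowest mean, 2.49, and the lowest *Per1*, 50.1 CPM. That library also had the lowest summed spiny neuron markers of ventral striatum, 1285 CPM (2893 in KO replicate 7). The part of its tissue content in these low values was not tested. Hypothalamus WT replicate 1 had the lowest mean of all, 1.87, and the lowest *Per1*, 32.5 CPM. Motor cortex did not follow, since its highest mean (4.48) belonged to a library with 52.2 CPM of *Per1*, near the lowest there.

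In dorsal striatum KO minus heterozygous, where *Per1* had its lowest adjusted p, 6 of the 12 immediate early genes were lower and none higher (0.461% of all genes in either direction). *Arc* fell by 1.65 and *Egr2* fell by 2.86 on the log2 scale, and *Nr4a1*, *Fos*, *Dusp1* and *Junb* were the others. In KO minus WT of dorsal striatum only 1 of the 12 was lower and 0 were higher (0.387% of all genes in either direction). Heterozygous minus WT gave 0 of 12 (0.0868% of all genes). The summed immediate early genes were 636 to 693 CPM in KO libraries, 1040 to 1947 in heterozygous and 958 to 1370 in WT ones. On deviations from group means over 27 libraries, *Per1* had an r of 0.67 with the mean of the immediate early genes. Its r with the mean of 6 glucocorticoid-responsive genes was 0.72. For *Per2* these values were 0.70 and 0.44. Values of such size were not particular to these 2 genes. With the immediate early genes *Cry1* had an r of 0.45 and *Cry2* of 0.42. With the glucocorticoid-responsive genes *Nr1d1* had an r of -0.66 and *Arntl* of -0.62. The part of either list in the levels of *Per1* and *Per2* was not tested.

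**Figure D4:**
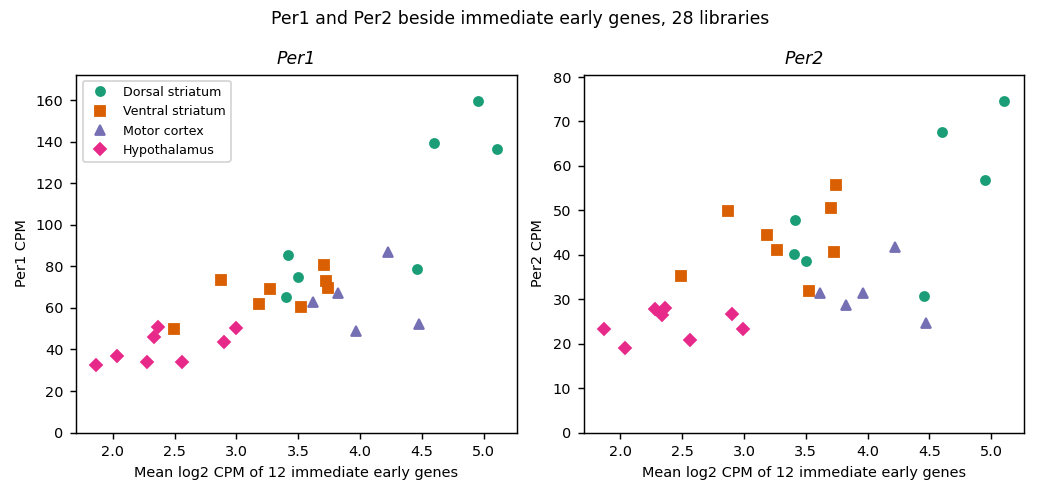
*Per1* and *Per2* CPM of each library against the mean log2 CPM of 12 immediate early genes, with symbols for the 4 regions. The 3 dorsal striatum libraries with *Per1* at 136 CPM or more lie at the right, at means of 4.60 to 5.11, and the 8 hypothalamus libraries at the left, at 3.00 or less.

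If libraries with the same digit came from the same mouse, a mouse high for a clock gene in 1 region could be high in another. This was examined between ventral striatum and hypothalamus, which shared all 8 numbers, on deviations of log2 CPM from the region mean. *Per1* gave a Pearson r of 0.76 (exact permutation p = 0.0252, two-sided, n = 8) and a Spearman rho of 0.74 (exact p = 0.0458). After adjustment over the 10 genes the permutation p-values were 0.252 and 0.458, and without the 2 numbers farthest from the median r was 0.73. Mouse numbers 1, 6 and 8 were below the mean in both regions and numbers 2, 3, 4 and 5 above it, with number 7 split. The other 9 genes had r between -0.46 and 0.25, with a smallest exact permutation p of 0.252, and over all genes tested the median r was 0.0207 with quartiles of -0.27 and 0.30.

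Opposite movement of *Arntl* and its repressors or targets was likewise not detected across the 8 mouse numbers. Averaged over ventral striatum and hypothalamus, *Arntl* against the other 9 clock genes gave r between -0.48 (*Per3*, exact permutation p = 0.226, n = 8) and 0.17 (*Nr1d1*), and -0.002 with *Dbp*. For *Per3* the Spearman rho was -0.48 (exact p = 0.243), and r was -0.48 without the 2 numbers farthest from the median. None of the 9 relations passed, with every adjusted permutation p of r at 0.996.

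**Figure D5:**
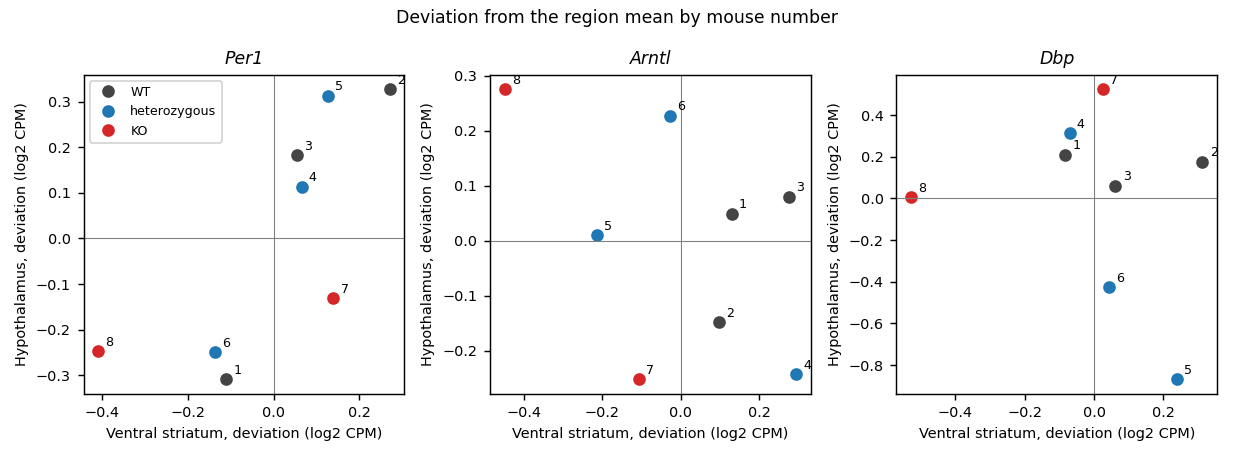
Deviation of log2 CPM from the region mean in ventral striatum (horizontal) and hypothalamus (vertical) for each of 8 mouse numbers, for *Per1*, *Arntl* and *Dbp*, coloured by genotype. For *Per1*, 7 of the 8 numbers have the same sign in both regions.

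Which genes moved most like the activator and the output gene was read from deviations from the group means over the 27 libraries of groups with at least 2. The r values below describe these libraries and carry no test, since libraries share depth and dissection. For *Arntl* the nearest genes were *Fam214a* (r = 0.79), *Slk* (0.77), *4833418N02Rik* (0.76), *Wdr43* (0.75) and *Tmed2* (0.73). *Nr1d1*, its repressor, ranked 21 of 14978 with r = 0.67, and *Per1* was near the other end (-0.41, rank 14106). For *Dbp* the nearest were *Nsg1* (0.78), *Fkbpl* (0.78), *Nmnat1* (0.74), *Dlat* (0.74) and *Atp6v0e2* (0.72), and *Nr1d2*, another target of the activator pair, ranked 263 (r = 0.51). *Per1* and *Per2* had an r of 0.75 with each other, at which *Per2* ranked 12 among all genes for *Per1*. Dorsal striatum WT replicate 1, whose *Arntl* stood far above the rest, entered all of these values.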

How the data were processed

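The authors trimmed reads with Trimmomatic 0.32, removed rRNA reads with Bowtie2 2.2.3, aligned to GRCm38 with STAR 2.3.1z8 and counted reads on exons with HTSeq 0.6.1p1 (tools and versions as in the submitters' notes). The files they deposited hold the raw count of each gene, unfiltered, 1 file per library. Genes held 44.8% to 54.2% of the tallied reads and ambiguous reads 0.417% to 0.660%; rows of unassigned reads were left out. Symbols and positions came from GENCODE M21, which named 28758 of 29878 genes. Genes above 1 CPM in at least 2 libraries were tested with edgeR 4.0.16 (glmFit, glmLRT, TMM; R 4.3.3) in 1 fit of 12 groups, with Benjamini-Hochberg adjustment over 14979 genes and calls at 0.05. DESeq2 1.42.0 and edgeR's quasi-likelihood test were alternatives. Values in the text are TMM-scaled CPM; log2 CPM used a prior count of 2. On simulated counts, the test recovered 53 of 100 genes changed by 1 (log2) and 26 of 100 changed by 0.6 in KO minus WT of dorsal striatum, among 14611 genes. The clock genes and lists were chosen with earlier results of these data known. All 10 clock genes are named, with at most 6 of the 27 other clock genes and 6 list genes per comparison, by smallest p. Other genes named were chosen after their values were seen.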

Additional observations from a re-analysis of the deposited data

Results flagged for a closer look

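In 4 of 40 combinations of clock gene and region, 1 library stood far from its nearest neighbour by Dixon's criterion, which chance meets in about 1 of 20 such groups. *Arntl* in dorsal striatum was highest in WT replicate 1 at 36.6 CPM, where the next library had 22.8. *Nr1d2* in dorsal striatum was lowest in heterozygous replicate 4 at 62.4 CPM, where the next had 84.2. *Clock* in motor cortex was highest in heterozygous replicate 5 at 151 CPM, with the next at 132, and *Nr1d1* in hypothalamus was highest in heterozygous replicate 6 at 183 CPM, with the next at 168. The 4 values came from 4 different libraries.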

How the results depend on the processing

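Scaling by library size alone moved the median of all genes by over 0.1 in 5 of the 6 region pairs (not in motor cortex minus ventral striatum), for example to 0.41 from 0.04 in hypothalamus minus dorsal striatum and to 0.24 from 0.03 in hypothalamus minus ventral striatum. Under it *Clock* (0.17, adjusted p = 0.0300) and *Nr1d2* (0.24, adjusted p = 0.00523) were higher in hypothalamus than in dorsal striatum, and *Nr1d1* (0.18, adjusted p = 0.0240), *Nr1d2* (0.22, adjusted p = 0.0114) and *Clock* (0.29, adjusted p = 0.000165) higher than in ventral striatum. Of these 5 values, that of *Clock* against ventral striatum lay above the shifted median and the others below it. Clock genes called in hypothalamus minus motor cortex fell to 4 from 7, and 1 relation between ventral striatum and hypothalamus passed (*Per1*, r = 0.87, adjusted p = 0.0456). Fitting motor cortex libraries alone gave 1 call in KO minus WT. Leaving out each library in turn gave 5 to 7 calls in hypothalamus minus motor cortex, 6 to 8 against dorsal and 5 against ventral striatum, 4 in motor cortex minus dorsal striatum, 3 (without ventral striatum KO replicate 7) to 6 in motor cortex minus ventral striatum, 5 to 7 in dorsal minus ventral striatum, 0 to 1 in dorsal striatum KO minus heterozygous and 0 in the other genotype comparisons and relations. Comparisons with WT motor cortex had no value without its only library, and groups of 2 libraries were left with 1. The mouse number as a replicate block gave 6 calls in motor cortex minus ventral striatum, adding *Arntl* (0.46, adjusted p = 0.0148), and changed no other clock gene call between regions or in the change with KO between regions. It was not fitted to genotypes within a region, where each number belongs to 1 genotype. Deviations over all genes correlated little between libraries of the same number (34 pairs, mean r 0.00697, highest 0.0856). Libraries of different numbers gave a mean r of -0.00424 (56 pairs, highest 0.0798). All pairs were of the same genotype in different regions. Of 27 libraries, 18 correlated best, among these, with a library of their own number. In a group of 2 libraries the deviations are equal and opposite. The r of a library with these 2 then differs only in sign, so the values for same and different numbers are partly set by the centring. The number to be met without shared animals was not computed, so these values do not settle whether a number is a mouse. Other scalings, filters and tests kept the counts within 1.5 times. Leaving out both libraries with misplaced markers was chosen after seeing the data. *Cry1* and *Dbp* rested on 7 to 73 counts per library, and what depth added to the width of their intervals was not tested.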
